A study of Oryza sativa with 12 samples.

Results

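Genes that had moved at least 2-fold on every array after 48 h without sucrose, but whose mean at 12 h lay close to no change, were examined in rice (Oryza sativa) suspension cells. Members were chosen by the deposited natural log ratios: a probe was a late rise when all 3 arrays at 48 h were at or above a 2-fold rise, and a late fall when all 3 were at or below a 2-fold fall. In addition the mean natural log ratio of the 3 arrays at 12 h had to lie between -0.2 and 0.2, with no blank in either group. On the log2 scale used from here on that window reaches 0.29 to either side of 0, and 1 unit is a 2-fold difference. The rule found 23 late rises and 30 late falls, 53 of the 21495 probes in the table and of the 18348 with all 6 values. The 48 h limit alone was passed by 481 probes upward (2.62%) and 463 downward (2.52%), and members were 4.78% and 6.48% of them. The values at 12 h and 48 h against sucrose chose the members and are given as a description, without a test.

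The study starved suspension cells of sucrose in Murashige and Skoog medium and set their polyadenylated RNA, labelled with Cy5, against that of control cells, labelled with Cy3, on 12 Agilent rice arrays. There were 4 groups of 3 arrays: starved cells at 12, 24 and 48 h, each against cells kept as long in medium with 3% sucrose, and starved cells at 12 h against cells in 88 mM sorbitol. The sorbitol medium had no sucrose either, so the last group compared cells that all lacked sucrose and differed in the osmotic agent. All values are log2 ratios of starved over control cells, and the ratio's direction was taken from the dye labels. No array had the dyes swapped, so a dye bias of a probe would stay in its mean. Nothing in the labels ties the arrays to separate cultures, and the p-values then measure a spread between arrays that may be technical. A ratio carries no level, so the cell type could not be checked from markers, and no member was on the lists of green tissue markers (13 probes) or seed storage markers (5 probes).

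Plant cells sense sucrose both as fuel and as a signal. When it runs out they first change genes of sugar handling and growth, and later turn to breaking down their own proteins, membranes and organelles. Membrane turnover in vacuoles, phosphate homeostasis, hormone signalling and the cytoskeleton are among the processes known to respond to prolonged starvation in plants. Whether the members act in such processes here was not tested.

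Of the late rises, 22 probes had a gene in the annotation used, all of them protein-coding, and 1 had none. Only 5 of these genes carried a name: SAP1, AGP1, CHMP1, PP2C02 and TUB3. Of the late falls, 26 probes had a protein-coding gene and 4 had none, and the 5 named genes were SPX2, SPX3, CIPK23, ARF23 and mEF-G. The other members are known here by a locus number alone, and no role is given to them. Mean ratios at 48 h ran from 1.13 to 1.93 among the late rises, with a median of 1.51. Among the late falls they ran from -4.002 to -1.11, with a median of -1.71, so the falls reached further from 0.

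**Figure D1:**
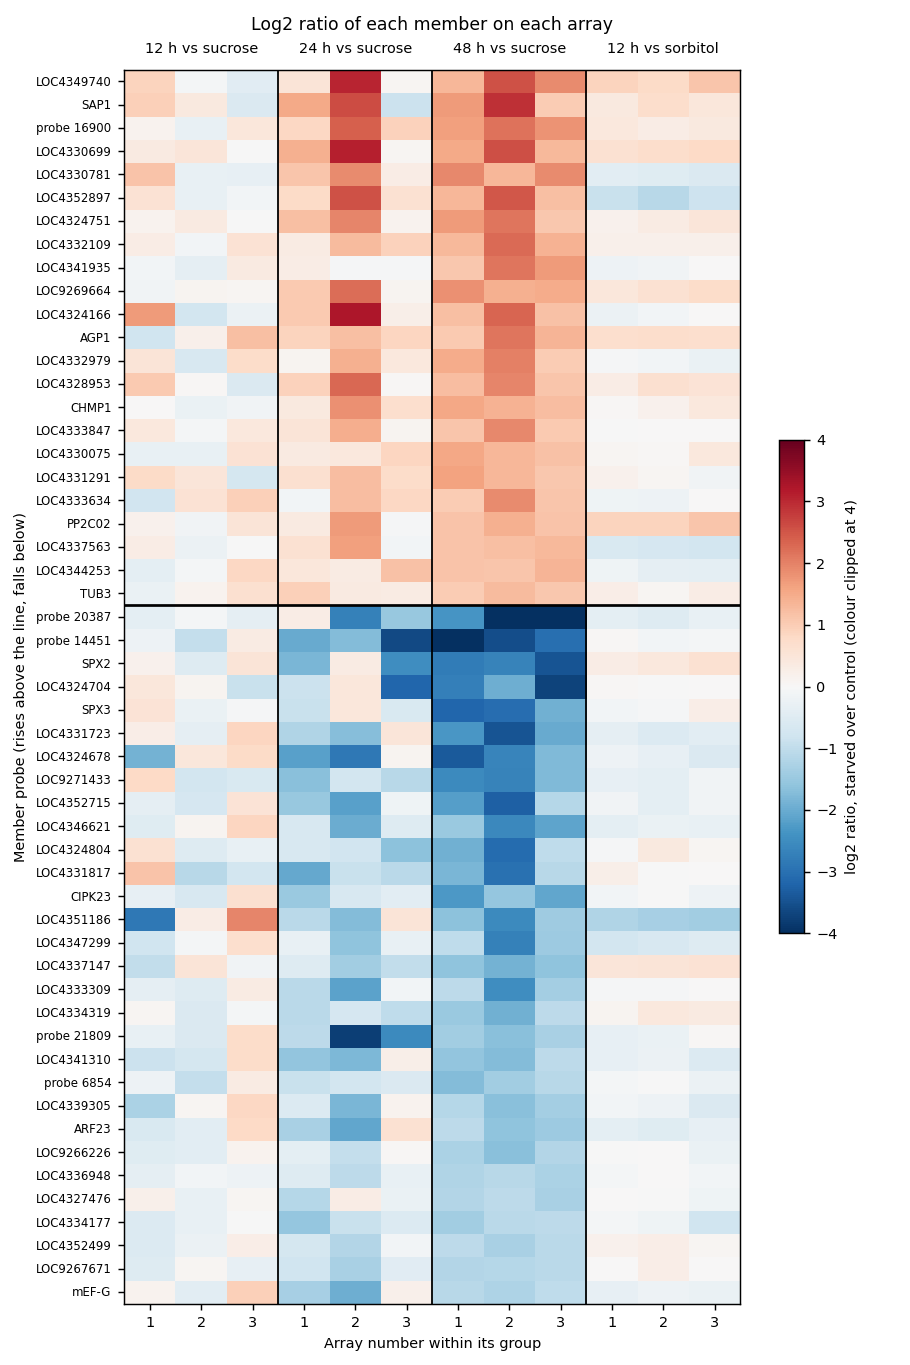
Log2 ratio of starved over control cells for each of the 53 members (rows, late rises above the line and late falls below it, ordered by the size of the 48 h mean) on each of the 12 arrays (columns, numbered within their group). The 48 h columns were used to choose the members. At 24 h the colours of the same direction are already present, strongest on array 2 and faint on array 3, while the 12 h columns are mixed in sign. Over all probes array 2 of 24 h also varied most and array 3 least (SD 0.98 and 0.65).

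The name "changed only late" was not borne out at 24 h, which the rule had not used. At 24 h all 23 late rises had a mean above 0, ranging from 0.07 to 1.53 with a median of 0.97, where 50.0% of all 20971 probes tested had one. All 30 late falls had a mean below 0, ranging from -2.45 to -0.35 with a median of -0.98, where 50.0% of all probes had one. All 3 arrays at 24 h were above 0 for 18 of 23 late rises, against 21.3% of all probes, and all 3 were below 0 for 17 of 30 late falls, against 20.3%. A mean of at least 2-fold was present in 10 late rises (5.42% of all probes were that high) and in 14 late falls (4.84% were that low). The median member had reached 63.1% of its 48 h log2 ratio at 24 h among the rises and 53.1% among the falls. The 48 h values in that share chose the members and it was not computed for other probes, so it is a description. Same-numbered arrays of 24 and 48 h deviated together across probes, so the 24 h arrays were not wholly independent of the 48 h arrays that chose the members.

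Few of these 24 h values passed the test against the spread between arrays. With limma fitted to the 3 arrays of 24 h alone (two-sided, Benjamini-Hochberg over 20971 probes, threshold 0.05), none of the 23 late rises was called higher, where 1.25% of all probes were. At an unadjusted p under 0.05 there were 13 of them, where 9.26% of all probes were higher at that level. One of the 30 late falls was called lower, where 0.744% of all probes were, and 21 had an unadjusted p under 0.05, where 9.78% of all probes were lower at that level. No member was called in the direction opposite to 48 h. The counts moved with the arrays that gave the spread: a fit over all 12 arrays called 7 late rises higher (4.62% of all probes) and 8 late falls lower (3.8%). With the replicate number as a block in that fit, 11 late rises (6.12%) and 16 late falls (6.23%) were called. Both of these fits take their spread from the 12 and 48 h arrays as well, whose values chose the members, so their calls are not independent of the rule and are given for comparison. The block also joins arrays 1 and 2 of 12 h by numbers that did not match them to 24 h. Array 3 of 24 h carried the weakest response, with a member median of 0.28 for the rises and -0.45 for the falls. Array 2 had 1.71 and -1.34, and array 1 had 0.65 and -1.08. Over all probes array 3 of 24 h was also the narrowest, with an SD of 0.65 against 0.98 on array 2 and 0.78 on array 1. Without array 3 of 24 h, 7 late rises were called higher (5.32% of all probes) and 12 late falls lower (6.44%). Without array 2 there were 0 (1.19%) and 2 (0.971%). Without array 1 limma called none of the 21429 probes tested (1161 were higher and 904 lower at an unadjusted p under 0.05), so the absence of members there says nothing about them.

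The late falls without a gene name held both the deepest fall and the only call. Probe 14451, which has no gene in the annotation used, stood at -0.21, -0.97 and 0.32 at 12 h, -2.01, -1.72 and -3.60 at 24 h, and -4.57, -3.55 and -3.02 at 48 h. All 3 arrays at 24 h were already below a 2-fold fall, and limma gave it -2.44 with an adjusted p of 0.0426. Against sorbitol the same probe had -0.04 ± 0.08 (SD, n = 3). Probe 20387, also without a gene, had the largest mean fall at 48 h, with -2.35, -4.71 and -4.95. Its 24 h values of 0.28, -2.70 and -1.53 did not share a sign, and the adjusted p from limma was 0.258. Probe 21809 was the 1 member whose mean was larger at 24 h (-2.45 ± 1.35) than at 48 h (-1.46 ± 0.19), so its fall was not confined to 48 h; the adjusted p from limma at 24 h was 0.0685.

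Among the late falls with a name, 2 encode SPX proteins. SPX proteins are known to sense inositol pyrophosphates and, when phosphate is plentiful, to hold back the PHR transcription factors that switch on phosphate uptake genes. In rice SPX1, SPX2, SPX3 and SPX5 are known as genes that phosphate shortage induces. SPX2 (LOC4328654) had 0.18, -0.52 and 0.51 at 12 h, -1.82, 0.34 and -2.50 at 24 h, and -2.78, -2.66 and -3.46 at 48 h. Its mean at 48 h, -2.97 ± 0.43 (SD, n = 3), is a 7.83-fold lower level in starved cells. At 24 h arrays 1 and 3 were low and array 2 was slightly above 0, so that the groups at 12 and 24 h overlapped, and the mean of -1.32 ± 1.48 had an adjusted p of 0.252 in limma.

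SPX3 (LOC4348535) kept closer to 0 until 48 h. It had 0.55, -0.28 and -0.06 at 12 h, -0.89, 0.44 and -0.60 at 24 h, and -3.18, -3.05 and -1.91 at 48 h. Only 12.9% of its 48 h log2 ratio was present at 24 h, the smallest share of any late fall, and limma gave -0.35 with an adjusted p of 0.593 there. Array 2 was again the one above 0 at 24 h for this gene, as for SPX2, while 18 of 30 late falls were lowest on array 2.

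The other phosphate signalling and transport genes on the array were then set beside them. This family was put together after the members were known and covered 20 probes of 15 genes. At 48 h, 4 of its probes were past the 2-fold limit on all arrays, all downward and all of SPX genes. SPX1 had means of -0.79 at 12 h, -0.67 at 24 h and -1.65 ± 0.42 at 48 h. SPX5 had -0.56, -0.67 and -1.80 ± 0.29. Both were below the 12 h window of the rule at 12 h, which is what kept them out of the late falls.

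SPX4, known in rice to hold PHR2 in the cytoplasm and to be degraded when phosphate is short, did not share this course: its 2 probes had 0.46 ± 0.19 and -0.38 ± 0.38 at 48 h. PHR3, a member of the PHR factor family, had 0.81 at 12 h, 0.50 at 24 h and 1.51 ± 1.26 at 48 h. The phosphate transporter PHT1-8 had 1.53 ± 1.34 on 1 probe and 0.53 ± 0.14 on another at 48 h. Both means were above 0, and their gap lay within the spread of the first probe. At 24 h limma called none of the 17 probes of this family that could be tested, and the same held in the fit over all 12 arrays.

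**Figure D2:**
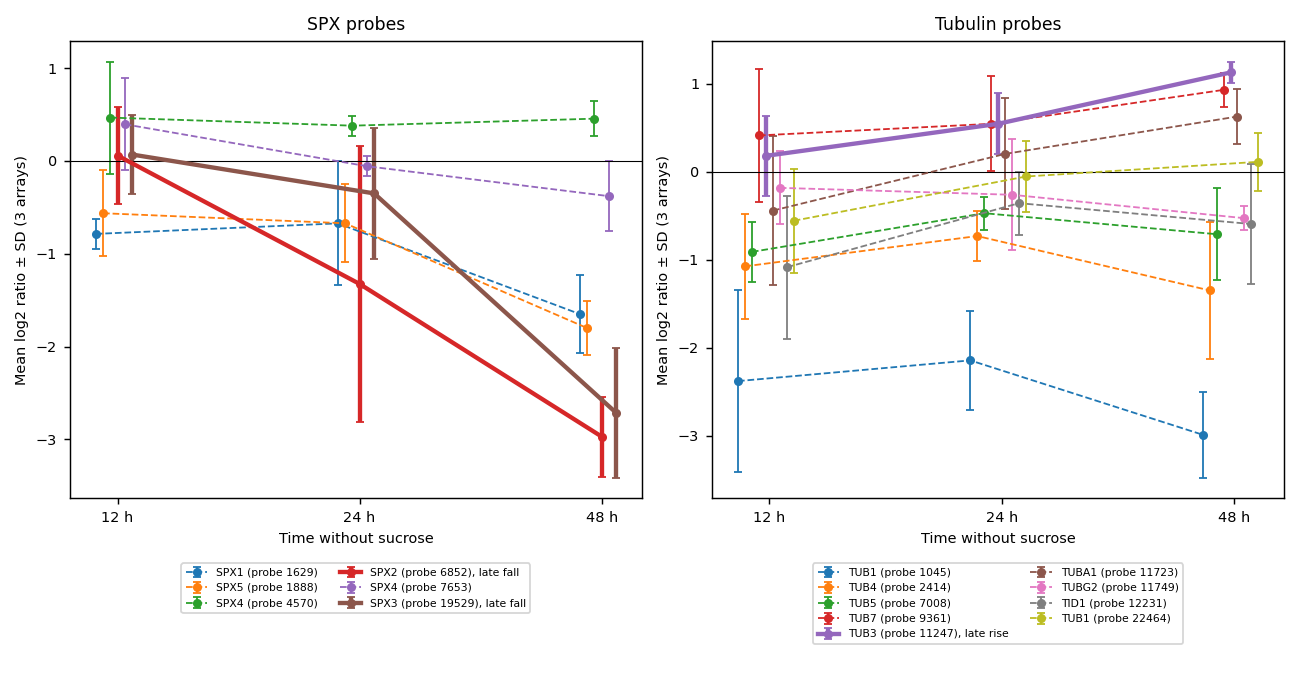
Mean log2 ratio ± SD of 3 arrays at 12, 24 and 48 h without sucrose for the SPX probes (left) and the tubulin probes (right), with late falls and late rises as thick lines. SPX2 and SPX3 begin near 0 and end at -2.97 and -2.71, below SPX1 and SPX5, while TUB3 ends at 1.13 and TUB1, on probe 1045, at -2.99.

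CIPK23 (LOC4342410) encodes a protein kinase that calcineurin B-like calcium sensors activate and that is known to regulate potassium and nitrate transport in roots. It had -0.33, -0.65 and 0.63 at 12 h, -1.48, -0.65 and -0.44 at 24 h, and -2.29, -1.55 and -2.07 at 48 h. All arrays of 24 and 48 h were below 0, and the lowest value at 24 h lay just above the highest at 48 h. Limma gave -0.86 at 24 h with an adjusted p of 0.187. A second probe of the gene had 0.29, -0.05 and -0.18 as its means at 12, 24 and 48 h and did not follow, so the fall rests on 1 of 2 probes. Of the 27 probes of the CIPK kinases on the array (23 genes), 25 could be tested at 24 h. Limma called 1 of them lower there, that of CIPK16, which had fallen at 12 h already (-3.01, against -2.16 at 24 h and -2.54 at 48 h).

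ARF23 (LOC4350610), also listed as arf1, encodes an auxin response factor, one of the transcription factors through which auxin changes gene expression. Its member probe had -0.59, -0.42 and 0.80 at 12 h, -1.30, -2.09 and 0.61 at 24 h, and -1.05, -1.62 and -1.46 at 48 h. Array 3 stood above 0 at both 12 and 24 h while arrays 1 and 2 were below it, and the 24 h mean of -0.93 ± 1.39 had an adjusted p of 0.368 in limma. The gene's other probe was lower than 0 at all times, with means of -0.60, -0.70 and -0.92, and was outside the rule at 12 h. In the list of 59 auxin probes ARF23 was the 1 member. Among 18 probes of auxin response factors, 3 were past the limit downward on all 48 h arrays (2.52% of all probes), ARF23 by the rule. Beside ARF23 these were ARF15, with -1.38, -1.83 and -2.15 at 12, 24 and 48 h, and ARF3, with -1.40, -1.30 and -2.26. Both were low from 12 h on.

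The gene mEF-G (LOC4333268) encodes a mitochondrial elongation factor G, which moves the ribosome along its messenger RNA in mitochondria. It had 0.14, -0.41 and 0.95 at 12 h, -1.32, -1.96 and 0.19 at 24 h, and -1.10, -1.24 and -1.003 at 48 h, the smallest mean fall of the 30. Arrays 1 and 2 of 24 h were lower than any array of 48 h, and array 3 was above 0. Limma gave -1.03 at 24 h with an adjusted p of 0.259. The organelle elongation factor EF-Ts had -0.89, -1.36 and -1.69 at 12, 24 and 48 h on 1 probe and -0.53, -0.20 and 0.01 on another, so its probes disagreed.

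Among the late rises, SAP1 (LOC4347423) had the largest mean of those with a name. It encodes a zinc finger protein with A20 and AN1 domains, of a family known in rice for induction by several stresses. It had 0.97, 0.38 and -0.57 at 12 h, 1.51, 2.60 and -0.87 at 24 h, and 1.71, 2.92 and 1.01 at 48 h. Within each time array 3 was the lowest, and at 48 h it lay only just inside the limit. The mean was 1.88 ± 0.97 at 48 h, a 3.68-fold higher level in starved cells, and 1.08 ± 1.77 at 24 h, where limma gave an adjusted p of 0.391. Of 14 probes of this family, which was put together after the members were known, SAP1 was the 1 past the limit upward at 48 h. SAP17 had 0.84, 1.02 and 1.02 at 12, 24 and 48 h, and SAP5 had -0.40, -0.67 and -1.38. No probe of the family was called at 24 h.

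AGP1 (LOC4345858) bears a name used for arabinogalactan proteins, heavily glycosylated proteins of the cell surface and wall. It had -0.79, 0.19 and 1.19 at 12 h, 0.88, 1.19 and 0.87 at 24 h, and 1.05, 2.13 and 1.36 at 48 h. The 24 h arrays lay close together, with a mean of 0.98 ± 0.18, and limma gave the smallest adjusted p at 24 h among the late rises, 0.0909. Over the alternatives tried the adjusted p from limma ran from 0.00455 to 0.436. Some of those fits took their spread from the arrays that chose the members as well. Its 12 h mean of 0.20 came from 1 low, 1 near 0 and 1 array past 2-fold upward.

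CHMP1 (LOC4341638) encodes a subunit of the ESCRT-III complex, which sorts membrane proteins into vesicles bound for the vacuole. It had 0.02, -0.25 and -0.15 at 12 h, 0.39, 1.84 and 0.67 at 24 h, and 1.55, 1.39 and 1.22 at 48 h. It was 1 of 3 late rises with every 12 h array inside the window, and its 12 h values lay below all of its 24 and 48 h values. Limma gave 0.97 at 24 h with an adjusted p of 0.198. The other vacuolar sorting gene with a name, VPS9A, had 0.05, 0.09 and 0.83 at 12, 24 and 48 h. Autophagy genes, 4 probes, held no member and had a median of 0.32 at 48 h, with none past the limit.

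PP2C02 (LOC4326717) encodes a protein phosphatase of type 2C, a family that includes the phosphatases that abscisic acid receptors inhibit. It had 0.17, -0.13 and 0.52 at 12 h, 0.35, 1.71 and -0.05 at 24 h, and 1.14, 1.41 and 1.14 at 48 h. Array 2 alone was high at 24 h, and limma gave 0.67 with an adjusted p of 0.378. Among 51 probes of these phosphatases (45 genes), 4 were past the limit upward at 48 h (2.62% of all probes), PP2C02 by the rule. PP2C12 had 1.59 at 12 h, 2.14 at 24 h and 2.68 at 48 h on probe 16355, the 1 called at 24 h (adjusted p 0.0477, limma). Its other probe, 21144, had 1.15, 1.72 and 2.05 and was not called (adjusted p 0.104, limma).

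TUB3 (LOC4341810) encodes a beta-tubulin, a building block of microtubules. It had -0.26, 0.15 and 0.65 at 12 h, 0.94, 0.36 and 0.33 at 24 h, and 1.03, 1.27 and 1.09 at 48 h, the smallest mean rise of the 23. Limma gave 0.54 at 24 h with an adjusted p of 0.293. It was the 1 of 9 tubulin probes past the limit upward at 48 h. TUB7 had 0.41, 0.54 and 0.93 at 12, 24 and 48 h, and the alpha-tubulin gene TUBA1 had -0.44, 0.20 and 0.63. TUB4 had -1.08, -0.73 and -1.35, and TUB1 had -2.38, -2.15 and -2.99 on probe 1045, which was called lower at 24 h (adjusted p 0.0267, limma). The other TUB1 probe, 22464, had -0.56, -0.05 and 0.11, so tubulin probes went both ways at 48 h. Tubulin genes are alike in sequence, and whether their probes share signal was not tested.

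**Figure D3:**
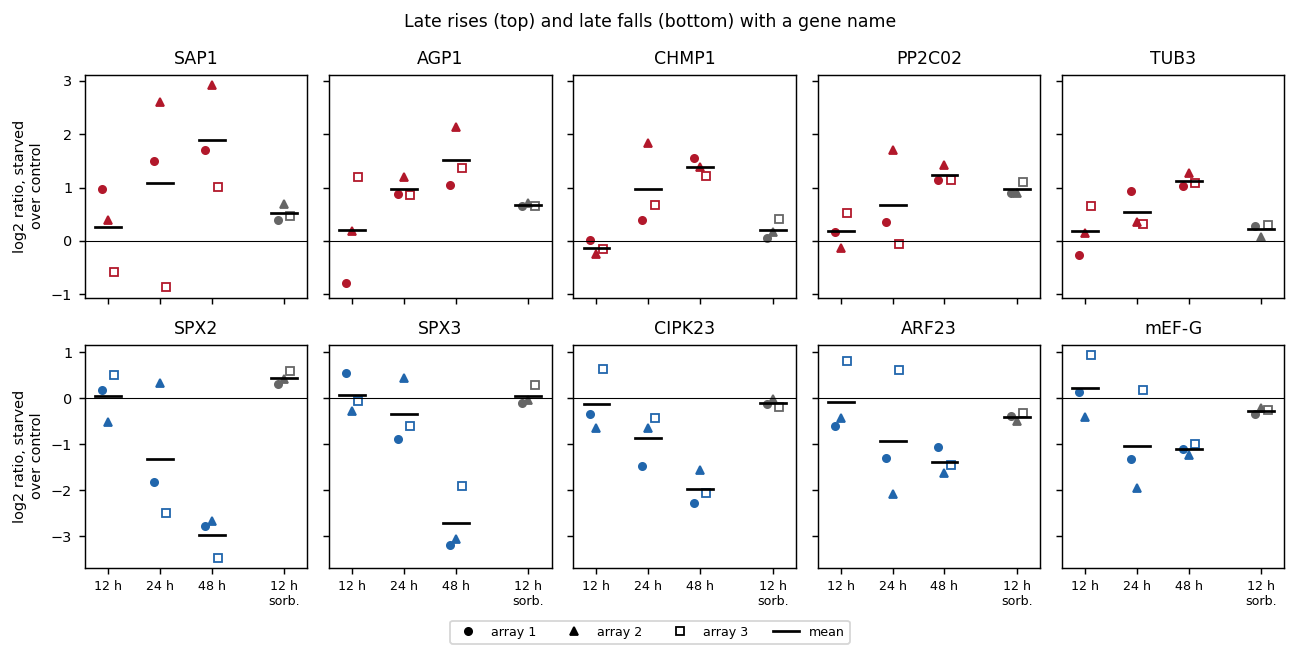
Log2 ratio of starved over control cells on each array for the 5 late rises with a gene name (top) and the 5 late falls with one (bottom), at 12, 24 and 48 h against sucrose and at 12 h against sorbitol (sorb.), with the mean of 3 arrays as a bar. At 24 h SAP1 spans -0.87 to 2.60 and SPX2 spans -2.50 to 0.34, wider than at 48 h, while the sorbitol arrays lie close together.

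The largest mean rise at 48 h was that of LOC4349740, with 1.34, 2.54 and 1.90, and a mean of 1.93 ± 0.60. It had 0.51, 3.06 and 0.08 at 24 h, where array 2 carried the response, and limma gave 1.21 with an adjusted p of 0.311. The member that moved last was LOC4341935. It had -0.10, -0.36 and 0.35 at 12 h, 0.28, -0.04 and -0.04 at 24 h, and 1.09, 2.13 and 1.71 at 48 h. Only 4.16% of its 48 h log2 ratio was present at 24 h, its 48 h values lay above all the others, and limma gave 0.07 at 24 h with an adjusted p of 0.900. Among the falls LOC4327476 was low on array 1 at 24 h (-1.15) and near 0 on arrays 2 and 3 (0.28 and -0.28), with -1.18, -1.06 and -1.31 at 48 h.

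Other probes on the array existed for 5 member genes, and none of them met the rule. LOC9269664 had a second probe with means of 0.08, 0.92 and 0.82 at 12, 24 and 48 h, near the member probe's 0.01 and 1.13 at 12 and 24 h and below its 1.59 at 48 h. LOC9267671 had a second probe with -0.17, -0.53 and -1.16, where the member probe had -0.26, -0.84 and -1.12. LOC4330075, with 1.35 at 48 h on its member probe, had others with 0.01 and -0.50, so its rise rests on 1 of 3 probes.

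The flat 12 h mean hid a spread between arrays. The 12 h arrays differed in sign for all 23 late rises and for 27 of 30 late falls, as they did for 88.3% of the 8555 probes with a mean in the window. The range across the 3 arrays had a median of 0.87 among the late rises (from 0.24 to 2.42) and of 1.28 among the late falls (from 0.25 to 4.82), against 0.77 among all probes in the window. Every 12 h array lay in the window for 3 late rises and no late fall, against 12.4% of all probes in the window. In 4 late rises and 4 late falls 1 array at 12 h was past 2-fold in the direction of 48 h. On arrays 1, 2 and 3 of 12 h, 10.08%, 5.43% and 5.84% of all probes were 2-fold up. The shares that were 2-fold down were 10.04%, 4.75% and 9.64%. The share of all probes with any of the 3 arrays past 2-fold was not computed, so the members' counts are a description. LOC4351186 had -2.86, 0.28 and 1.96 at 12 h, the widest of all. LOC4324678 had -1.90, 0.46 and 0.75, and LOC4324166 had 1.69, -0.73 and -0.24. For such probes the 12 h mean near 0 averages arrays that went opposite ways.

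**Figure D4:**
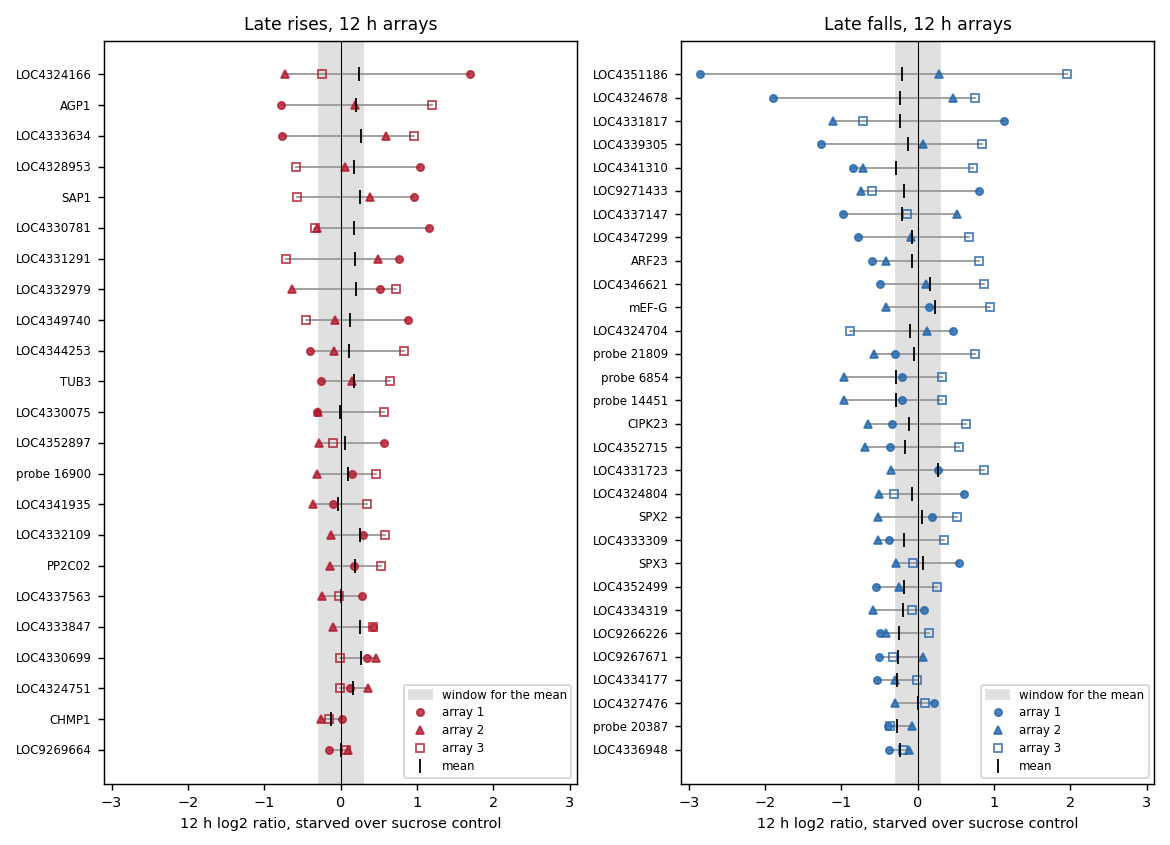
Log2 ratio at 12 h against sucrose on arrays 1, 2 and 3 for each late rise (left) and late fall (right), ordered by the range across arrays, with the mean as a tick and the window for the mean in grey. LOC4351186 spans -2.86 to 1.96, and 3 late rises but no late fall lie wholly within the window.

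Members were set against the other probes that passed the 48 h limit, grouped by their 12 h mean. Of the 481 rises at 48 h, 325 were past 2-fold at 12 h in the mean, 131 were between the window and 2-fold, 23 were the late rises, and 2 were below the window. Their 24 h medians were 2.16, 1.17, 0.97 and 0.79 in that order, and their 48 h medians 2.54, 1.77, 1.51 and 2.23. Of the 463 falls, 267 were past 2-fold at 12 h, 161 between the window and 2-fold, 30 were the late falls and 5 above the window. Their 24 h medians were -1.62, -1.07, -0.98 and -0.50, and their 48 h medians -2.23, -1.78, -1.71 and -1.58. Within both directions the members' 24 h medians were nearer 0 than those of probes between the window and 2-fold, with 0.97 against 1.17 among the rises and -0.98 against -1.07 among the falls. Calls at 24 h were 0 of 23 late rises and 1 of 30 late falls, against 6 of 131 and 6 of 161 in that neighbouring class. In the fit over all 12 arrays 30.4% of late rises and 26.7% of late falls were called, against 67.2% and 67.1% of the neighbouring class. These medians and shares are a description, since the 12 and 48 h arrays formed the groups.

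**Figure D5:**
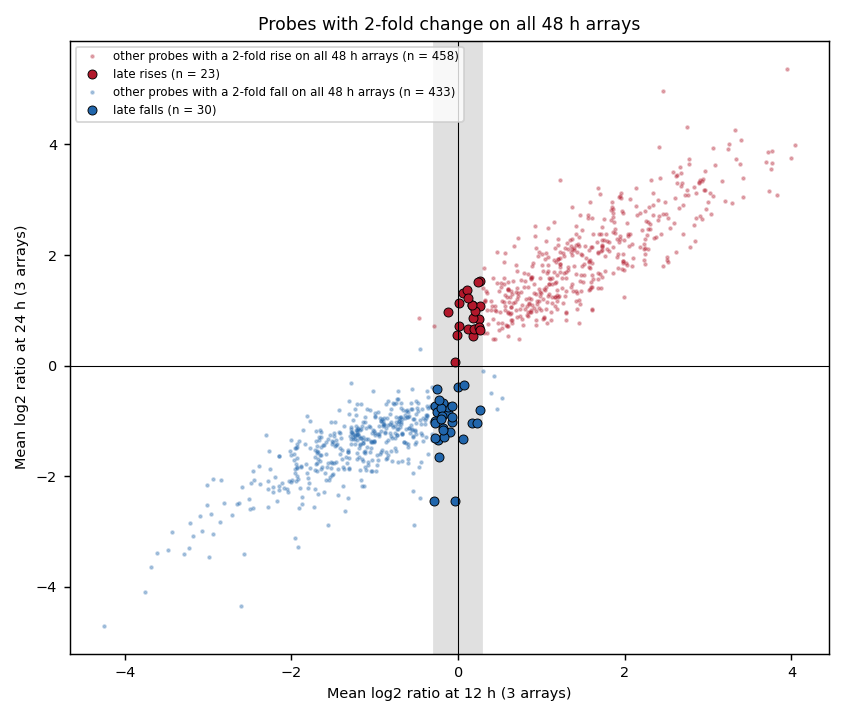
Mean log2 ratio at 24 h (vertical) against the mean at 12 h (horizontal), 3 arrays each, for probes past 2-fold on all 48 h arrays, with the 23 late rises and 30 late falls as large points and the 12 h window in grey. All late rises lie above 0 and all late falls below 0 at 24 h, beside the bands of the other probes.

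Several members lay close to the limits of the rule. Among late rises the smallest 48 h value was 1.01 for SAP1 and for LOC4333634 and 1.03 for LOC4332979, and just outside were LOC4330837 with 0.997, LOC4330201 with 0.99 and LOC4339323 with 0.95. Among late falls the value nearest 0 was -1.00003 for LOC4324804, -1.003 for mEF-G and -1.01 for LOC4347299. Just outside were LOC4327738 and LOC4349488, both with -0.998, and LOC4331843 with -0.99.

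The sorbitol arrays were not used by the rule and asked whether members differed at 12 h between the sucrose-free media. They varied less than the others, with an SD over probes of 0.30 to 0.38 against 0.64 to 1.26. With limma on these 3 arrays alone, 9 late rises were called higher and 4 lower, where 17.8% of all 21470 probes were called higher and 17.8% lower. Of the late falls 11 were called lower and 3 higher. All 3 arrays were above 0 for 13 of 23 late rises (31.4% of all probes) and below 0 for 15 of 30 late falls (31.1%). The medians over all members were 0.20 for the rises and -0.11 for the falls, and 1 member, LOC4351186, was past 2-fold on all 3 arrays. A fit over all 12 arrays, in which all groups shared 1 estimate of the spread, called no member, and 0.0419% of all probes higher. At an unadjusted p under 0.05 in that fit there were 2 late rises higher, 2 lower and no late fall, where 3.08% of all probes were higher and 3.57% lower. With the replicate block it again called no member, and 0.0373% of all probes higher. Fits that gave the sorbitol arrays their own spread or weight made calls, and those that shared the spread made none among the members.

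PP2C02 had 0.89, 0.90 and 1.11 against sorbitol, the largest mean among the late rises (0.97 ± 0.12; adjusted p 3.37e-05, limma). Its 12 h mean against sucrose was 0.19 ± 0.33, with every array below its sorbitol values. AGP1 had 0.66, 0.71 and 0.66 against sorbitol (adjusted p 0.000198, limma), and SAP1 had 0.40, 0.70 and 0.46 (adjusted p 0.00157, limma). Both were higher in the cells without sorbitol on every array. CHMP1 and TUB3, with 0.21 ± 0.18 and 0.22 ± 0.12, were not called (adjusted p 0.0937 and 0.0726, limma).

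Some members stood against sorbitol on the side opposite to their 48 h direction. LOC4352897, a late rise with 1.32, 2.48 and 1.22 at 48 h, had -0.90, -1.11 and -0.83 against sorbitol (adjusted p 4.45e-05, limma). LOC4330781 and LOC4337563 were also lower than in sorbitol, by means of -0.50 and -0.67. SPX2 was higher, with 0.31, 0.43 and 0.59 (adjusted p 0.00349, limma), while SPX3 had 0.05 ± 0.20 and was not called. LOC4337147, a late fall, was higher too, with 0.49, 0.51 and 0.57 (adjusted p 0.000918, limma).

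Others kept the direction of their 48 h ratio. ARF23 had -0.38, -0.50 and -0.31 against sorbitol (adjusted p 0.00494, limma), and mEF-G had -0.34, -0.20 and -0.26 (adjusted p 0.0283, limma). The largest was LOC4351186, with -1.20, -1.32 and -1.40 (adjusted p 6.01e-06, limma). These 3 arrays lay within 0.10 (SD) of their mean, where the 12 h arrays of the same gene against sucrose spanned 4.82. CIPK23 had -0.10 ± 0.09 and was not called.

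Functional lists made for the pathways of starvation were matched by gene name. Members were 53 of all 21495 probes, and at that share most lists of these sizes would hold none. The counts of members below are therefore a description and no result about the pathways. Of 26 lists by gene name, 4 held 1 member each: TUB3 among 40 probes for kinesins, tubulins and actins, ARF23 among 59 for auxin, PP2C02 among 74 for abscisic acid and ethylene, and CIPK23 among 83 for protein kinases and phosphatases. The glycolysis and fermentation list had 9 of its 17 probes (16 with all values) past the limit downward on all 48 h arrays, where 2.52% of all probes were. Its median was -2.14 at 48 h and -0.71 at 12 h, and it held no late fall. Sugar transport, with 18 probes (12 with all values), had 4 past the limit upward, where 2.62% of all probes were, and no late rise. DNA replication and histones (27 probes), ribosomal proteins and translation (34), and transcription factors (134) held none. Lists by name reach only the 2389 probes with a gene name, which included 5 of 23 late rises and 5 of 30 late falls.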

How the data were processed

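The authors deposited 1 processed value per probe and array, which was read as a natural log ratio, made from the Cy5 and Cy3 channels per the labels. The scale was inferred: in 2 columns the minimum equals ln of 0.01. Ratios were converted to log2. Centring, background correction, normalization and software are not given in the sources used here, column means lay within 0.0075 of 0 (natural log), and scanner intensities were not used here. Of all cells 2.41% were blank (13.6% for replicate 2 at 48 h), and they stayed blank.

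Probes were named from GEO's annotation for the array (1 gene for 17839 probes, several for 21, none for 3635) and a RefSeq gene table (assembly ASM3414082v1), where 100% of gene IDs were found. Each group was fitted alone in R 4.3.3 with limma 3.58.1 (functions lmFit and eBayes, mean against 0, probes with all 3 values). The 24 h fit was also run on simulated arrays with known shifts, drawn independently of each other. The outcome of that run is not reported here, so it says nothing about the members. The number of arrays limits the precision. Alternatives were a fit over all 12 arrays, array weights, a replicate block, other normalizations, other limits of the rule and leaving out arrays. Python 3.11.15 did the rest, with numpy 2.4.6, pandas 2.3.3 and matplotlib 3.10.9.

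The members and lists were chosen with earlier results of these data known. By rule the text names members with a gene name and, without one, those nearest the 48 h limit. Locus and probe numbers beyond that, and family genes that are no members, were chosen after their values were seen. The families of SPX and phosphate genes, SAP genes, arabinogalactan proteins, vacuolar sorting and organelle translation were added after the members were known. A search for promoter motifs was planned and not run, since no promoter sequence was used here.

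Replicate numbers were checked for pairing by the correlation, across probes, of deviations from the group means. Same-numbered arrays of 24 and 48 h gave 0.56, 0.42 and 0.49 for numbers 1, 2 and 3, so they deviated together. Whether they share a culture or only the strength of the response was not tested. Those of 12 and 24 h gave -0.19, -0.03 and 0.44, and those of 12 and 48 h gave -0.08, -0.12 and 0.46. Numbers 1 and 2 of 12 h thus did not match the later groups, and number 3 did. Array 1 of 12 h went with array 2 of 24 h (0.39) and 48 h (0.36), and array 2 of 12 h with array 1 of 24 h (0.52) and 48 h (0.33). The replicate block over all 12 arrays uses the numbers as given. No arrays were copies of each other: at most 3 probes had identical values on 2 arrays of a group.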

Additional observations from a re-analysis of the deposited data

How the results depend on the processing

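Calls moved with the alternatives. The direction of a 24 h mean could turn only where its values or the array weights changed. Fits that only added arrays, the replicate block, the variance trend and a lower demand on values changed the spread alone. Their values kept direction by design and are no support for it. Of 742 values for the 53 members at 24 h under alternatives, 581 kept their direction and their side of the threshold, 157 passed it in addition, 2 lost it, and 2 turned: without 24 h replicate 1, LOC4341935 had -0.040 and LOC4327476 had 0.0028. Leaving out each 24 h array gave -0.040 to 0.12 and -0.72 to 0.0028 for these genes, and the cause was not tested.

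Late rises called higher and late falls called lower at 24 h (0 and 1; all probes 263 higher and 156 lower) were 7 and 8 over all 12 arrays (969 and 797), 16 and 21 with array weights (1870 and 2143), and 8 and 14 with the 24 h and sorbitol arrays (1650 and 1624). They were 1 and 3 over the 9 sucrose-control arrays (418 and 281), 1 and 2 after quantile normalization (568 and 439), 0 and 0 with a variance trend (0 and 0), and 17 and 20 over all arrays but those numbered 3 against sucrose (1897 and 2478). With the replicate block, whose numbers 1 and 2 did not match 12 h to 24 h, they were 11 and 16 (1284 and 1307). The fits over all 12 arrays, with array weights and with the block took their spread partly from the 12 and 48 h arrays. So did those over the 9 sucrose-control arrays and without arrays numbered 3. Those 12 and 48 h arrays chose the members, so these counts are not independent of the rule. The fit with the 24 h and sorbitol arrays used none of them. Leaving out 1 array of 24 h gave 0 to 7 and 0 to 12 (0 to 1116 and 0 to 1351), the highest without replicate 3.

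Against sorbitol the 9 and 4 late rises called higher and lower, and the 11 and 3 late falls called lower and higher, were 0 in the fits over all 12 arrays (all probes 9 higher and 0 lower, where 3814 and 3816 were called), with the 24 h arrays (5 and 0), with the replicate block (8 and 0) and without arrays numbered 3 (0 and 0). Leaving out 1 sorbitol array gave 8 to 9 and 3 to 4 rises, 7 to 12 and 2 to 3 falls, and 2251 to 4027 and 2337 to 4078 probes.

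The counts of 23 late rises and 30 late falls were 9 and 10 with a 12 h window of 0.1, 41 and 57 with 0.3, 136 and 177 at 1.5-fold, 1 and 9 at 3-fold, 3 and 0 with each 12 h array in the window, and 13 and 14 after quantile normalization, of which 7 and 13 were members. Centring arrays on the median left 20 and 25 members of 23 and 30. Leaving out 1 array of 12 h gave 20 to 48 and 30 to 54 probes, of which 14 to 17 and 14 to 22 were members. Leaving out 1 of 48 h gave 29 to 102 and 44 to 197, the most without replicate 3. With 3 arrays a group and no intensities, what signal over background allows is unknown for every probe.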
